A study of Mus musculus with 36 samples.

Results

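Liver RNA of C57BL6/J mice kept at an ambient temperature of 30 °C was compared with that of mice kept at 22 °C, 12 h after injection of lipopolysaccharide (LPS). The comparison takes the 9 libraries titled for that time, 4 at 30 °C and 5 at 22 °C, out of 36 in the series, and the 8702 of 34829 genes whose value averaged at least 5 over the 36 libraries. The other 27 libraries are livers of the same strain taken before LPS (0 h, 4 at 22 °C and 5 at 30 °C), at 4 h (4 and 4) and at 24 h (5 and 5). Every mouse of the 12 h groups received LPS, and a group without LPS at 12 h is not named in the labels, so the comparison is between temperatures under LPS. The sources used here give neither sex, age nor LPS dose, nor do they say that each library comes from its own animal, so the p-values measure the spread between libraries.

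LPS, a glycolipid of the outer membrane of Gram-negative bacteria, binds Toll-like receptor 4 and sets off NF-kB and interferon signalling, and the liver answers by making acute phase proteins while many of its metabolic genes fall. An ambient temperature of 30 °C is close to thermoneutrality for mice, where little heat has to be produced to hold body temperature, whereas 22 °C is a mild cold load. The series title places the study in the competition between immune defence and heat production for energy.

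Libraries were made by CEL-Seq2 adapted to tissue RNA, a method that primes on the poly(A) tail and reads the 3' end. Values are the authors' scaled reads per base, and they are given below in the order of the replicate numbers. Differences are 30 °C minus 22 °C in log2(value + 1), so the difference of a gene with low values is understated, and a gene is called at an adjusted p under 0.05 in limma over all 8702 genes. Depth was estimated by dividing the summed values by the lowest of the commonest values above 0, taken as the worth of 1 read. It was 798000 to 1583000 reads per library at 22 °C and 934000 to 1100000 at 30 °C (exact permutation test, two-sided, p = 0.381, 126 splits). Of the values above 0, only 16.3% to 17.8% were whole multiples of that worth, so depth and levels of reads are approximate. In these libraries 3 reads correspond to a value of 2.05 to 3.86. Summed over all genes, the values were 1025510 to 1131970 at 22 °C and 828054 to 917457 at 30 °C, without overlap (exact p = 0.00794, the smallest that 126 splits allow). After removal of the major urinary protein genes and of genes with identical values, the sums were 952458 to 1073680 and 821058 to 910989. The labelled tissue was checked on 14 hepatocyte markers, and all 14 passed the filter.

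Some libraries stood apart from their group. On the first principal component of the 9 libraries (28.0% of the variance), 22 °C replicate 5 lay between the other 4 libraries at 22 °C and the 4 at 30 °C. Its highest correlation across genes was with 30 °C replicate 3 (r = 0.914), and with the libraries of its own group r was at most 0.908. Its label was kept, and results are given with and without it where it matters. On the second component (13.5%), 22 °C replicate 4 lay at -48.9 and the other 8 libraries at -15.9 to 28.0. Without replicate 4, 338 genes were called, in place of 371. In bulk tissue, fewer cells of a type and less RNA per cell cannot be told apart.

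**Figure D1:**
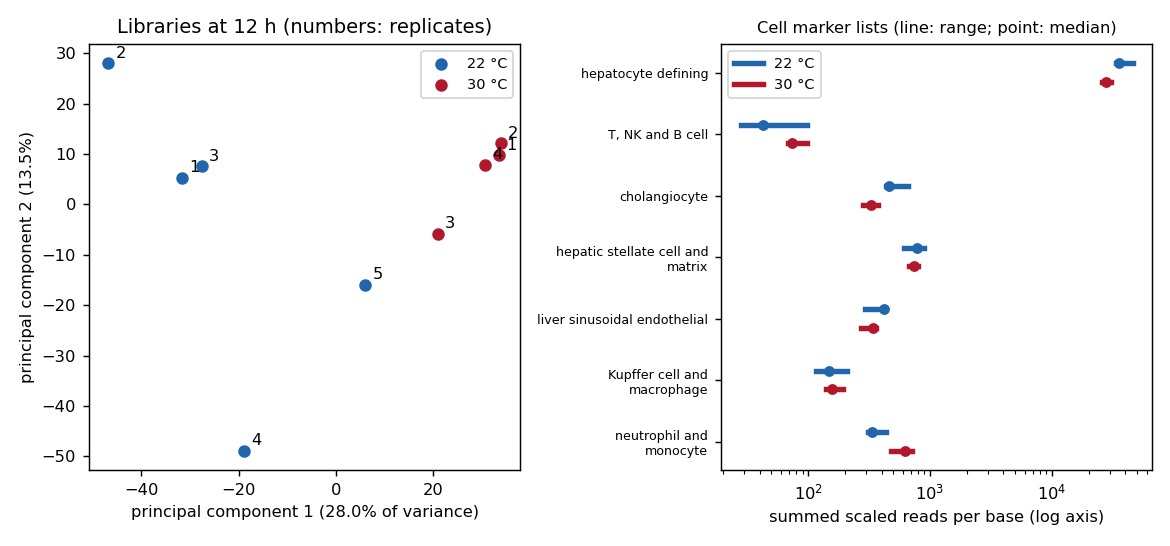
Left, the 9 libraries on the first and second principal components of log2(value + 1), with replicate numbers. Right, summed values of cell marker lists (log axis), with a line from the lowest to the highest library and a point at the median; 22 °C replicate 5 lies between the groups, and the neutrophil and monocyte, hepatocyte and cholangiocyte sums do not overlap.

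Most genes that differed were lower at 30 °C. Of 8702 genes, 286 were lower (3.29%) and 85 higher (0.977%), together 4.26% of genes tested; 1465 genes (16.8%) had an unadjusted p under 0.05. Among the genes called, 176 of the lower and 69 of the higher genes differed by at least 1 on the log2 scale. The values of the groups did not overlap for 462 lower genes (5.31%) and 215 higher genes (2.47%), together 7.78%. The median difference over all genes was -0.01. When the libraries were rescaled to a common upper quartile, the median moved to 0.08, and 193 genes were lower and 129 higher, so the excess of lower genes depends in part on the scaling. Without 22 °C replicate 5, 417 genes were lower and 173 higher. The count of 371 calls fell to 239 without 22 °C replicate 1, 188 without replicate 2, 231 without 30 °C replicate 1, 217 without replicate 2 and 241 without replicate 4.

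**Figure D2:**
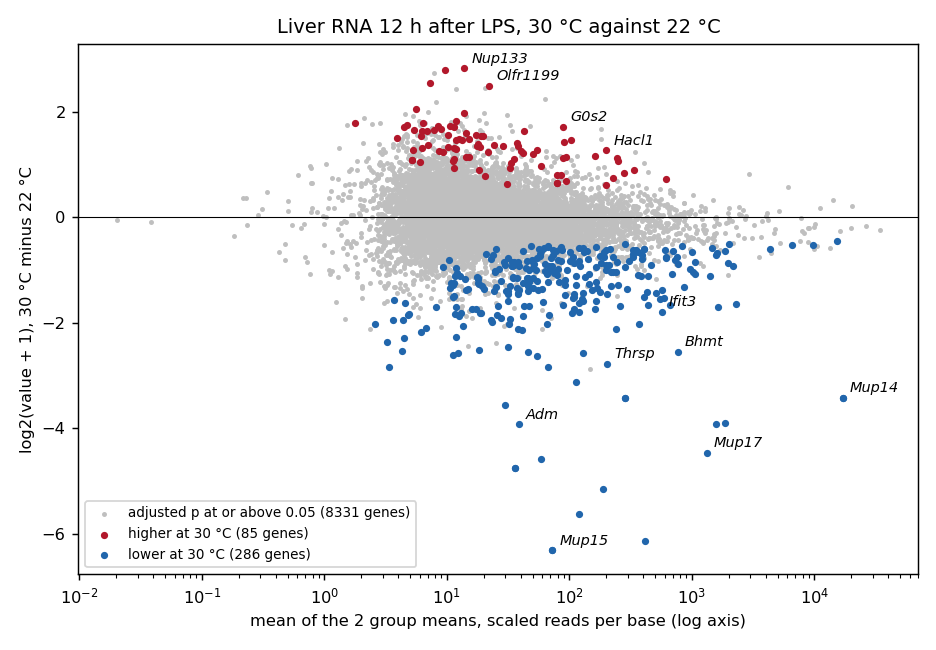
Each point is one of 8702 genes, by the mean of the group means in scaled reads per base (log axis) and the difference in log2(value + 1), 30 °C minus 22 °C, 12 h after LPS. The 286 genes called lower extend to differences beyond -6, where the major urinary proteins lie, and the 85 called higher stay below 3.

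Markers of cell types were summed per library. The 25 neutrophil and monocyte markers summed to 309.6 to 435 at 22 °C and 477 to 706 at 30 °C, without overlap, with Elane and Mpo at 0 in all 9 libraries. None of the 11 tested was called by limma, and 2 had an unadjusted p under 0.05, both with differences above 0. The 14 hepatocyte markers summed to 33766 to 46014 and 25859 to 30372, without overlap, and 6 of them were lower (3 after upper-quartile rescaling, 3 without 22 °C replicate 1 or 3 or 30 °C replicate 1, 2 without 30 °C replicate 4). The 15 cholangiocyte markers, which include Sox9, summed to 437 to 658 and 283 to 373, with Krt19, Cftr and Tff3 at 0. Sums of Kupffer cell, sinusoidal endothelial, stellate and lymphocyte markers overlapped. Oit3, the 1 called sinusoidal gene of 22, differed by -1.59 (adjusted p = 0.00363). The values summed over all genes were also lower at 30 °C without overlap (828054 to 917457, against 1025510 to 1131970 at 22 °C). The marker sums were not divided by that total. The neutrophil and monocyte, hepatocyte and cholangiocyte sums moved with the groups, and their part in the differences between the groups was not tested.

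The lowest differences were those of the major urinary proteins (Mup), small lipocalins that hepatocytes secrete and mice excrete as pheromone carriers. Of 18 Mup genes tested, 14 were lower at 30 °C and 0 higher, and the median difference over the 18 was -3.66. The other 4 of the 22 in the list did not pass the filter on low values. Mup17 read 3038, 1781, 2576, 2091 and 3193 at 22 °C and 102, 112, 142 and 93.7 at 30 °C. These values are far apart in all 9 libraries, and the difference was -4.46 (SE 0.49, adjusted p = 1.63e-07). Mup14, the most abundant copy in these values, read 36295, 23620.4, 30089, 30027 and 34960.2 at 22 °C and 2405, 2551, 4654 and 2368 at 30 °C, a difference of -3.42 (adjusted p = 1.23e-07). Mup11 and Mup16 differed by -3.92 and -3.42. Values at 30 °C were at or near the level of 3 reads for several copies. Mup15 was listed at 0 in 3 of the 4 libraries at 30 °C and at 6.54 in the other, against 81.2 to 266 at 22 °C (-6.31, adjusted p = 0.00474). For Mup7 (from 569.7 to 1316 at 22 °C and from 0 to 31.6 at 30 °C), Mup12 (from 126 to 405 at 22 °C and from 0 to 42.5 at 30 °C), Mup18 (from 242 to 434 at 22 °C and from 0 to 26.6 at 30 °C), Mup1 (from 39.6 to 229 at 22 °C and from 0 to 22.9 at 30 °C) and Mup9 (from 32.5 to 89.2 at 22 °C and from 0 to 27.2 at 30 °C) the groups did not overlap either. With a pseudocount of 5 in place of 1, the difference of Mup9 was -3.06 in place of -4.75.

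The differences of some copies were smaller. Mup20, also known as darcin, a pheromone of male mice, read 322, 339, 374, 292 and 425 at 22 °C and 179, 102, 173 and 126 at 30 °C. No library at 30 °C reached the lowest at 22 °C, and the difference was -1.29 (SE 0.23, adjusted p = 0.000739). Mup3, named here after its values were seen, read 2633, 1813, 1920.2, 1692 and 1576 at 22 °C and 925, 776, 1157 and 729 at 30 °C and differed by -1.10 (adjusted p = 0.00377). Mup genes are near-identical copies in a cluster on chromosome 4, and the split of reads between them by the authors' software is uncertain. Together with genes of identical values they made up 5.15% to 8.37% of all signal at 22 °C and 0.705% to 1.30% at 30 °C.

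Promoter windows of some Mup genes show how alike these copies are. RefSeq promoters (GRCm38.p6, 250 bases before to 50 after the start) were found for 11 of the 18 genes tested, and 10 of these hold TATATAA on either strand, a TATA box sequence chosen after the promoters were read. It occurs in 3.84% of all 27025 promoters and in 1.85% of the 6651 of genes tested, in 13 of 217 promoters of the genes called lower (5.99%) and in 2 of 68 of those called higher (2.94%). The 217 include at least those of Mup3, Mup9, Mup11, Mup14, Mup15, Mup17 and Mup18, which hold it. Other Mup promoters with it may be among the 217 too, so the 13 do not show how many lie outside the family. The motif was chosen from Mup promoters, so its share among the lower genes is not a separate result. Not every copy with TATATAA was compared, and its first base lay from -31 (Mup9) to 12 (Mup14) relative to the annotated start. The 30 bases around TATATAA are the same in Mup9, Mup11, Mup14, Mup15, Mup17 and Mup18. They are shown for Mup17 (chr4:61595840-61595869, minus strand) and for Mup3 (chr4:62087311-62087340, minus strand), whose difference was smaller, with TATATAA in capitals.
Mup17: gaacccagagagTATATAAggacaagcaaa
Mup3: gaaaccagagagTATATAAggacaagcaaa
Counted from 1 at the 5' end of the window, Mup3 differs from Mup17 by C4A. Mup21, which was not among the genes tested, carries the same change.

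**Figure D3:**
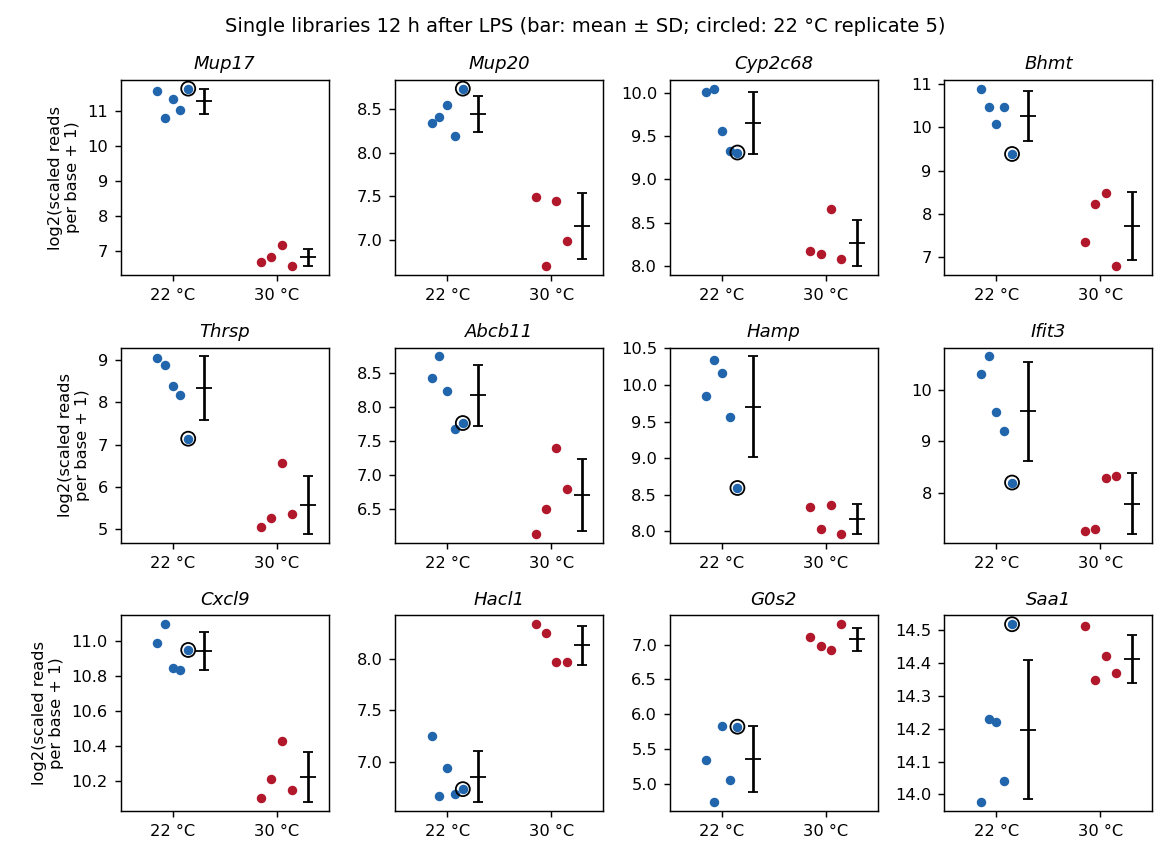
Values of 12 genes in log2(scaled reads per base + 1) in the 5 libraries at 22 °C (blue) and the 4 at 30 °C (red), with the mean ± SD beside them and 22 °C replicate 5 circled. The groups are apart for 10 of the panels; for Ifit3 the circled library lies among those at 30 °C, and for Saa1 the groups overlap.

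Genes of drug and steroid metabolism were lower at 30 °C. Of 46 cytochrome P450 genes of families 1 to 4 tested, which oxidise drugs, steroids and fatty acids, 19 were lower and 0 higher, with a median difference of -0.96. Cyp2c68 read 1031, 1055, 752, 643 and 634 at 22 °C and 287, 282, 403 and 270.1 at 30 °C. All 4 libraries at 30 °C were below all 5 at 22 °C, and the difference was -1.39 (SE 0.20, adjusted p = 3.31e-05). Cyp4v3, a fatty acid omega-hydroxylase, read 761, 743, 493, 676 and 367 at 22 °C and 197, 167, 293 and 186 at 30 °C, also without overlap, and differed by -1.50 (SE 0.20, adjusted p = 9.03e-06). Cyp2c50 (-2.01), Cyp2c37 (-1.69), Cyp1a2 (-1.36), Cyp2b9 (-1.30) and Cyp3a25 (-1.23) were lower without overlap too, at adjusted p of 0.00026 to 0.00428. The count of 19 was 22 without 22 °C replicate 5 and 12 without 22 °C replicate 2 or without 30 °C replicate 2. Members of the Cyp2c family are similar in sequence, and reads may be shared between them.

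Of 57 conjugating enzymes, carboxylesterases and monooxygenases, 16 were lower and 1 higher, with a median of -0.63. Sult2a8, a bile acid sulfotransferase, read 87.5, 79.8, 46.3, 66.2 and 32.7 at 22 °C and 8.37, 8.62, 26 and 13.9 at 30 °C, a difference of -2.12 (SE 0.36, adjusted p = 0.000364). The carboxylesterases Ces3b (from 29.7 to 83.4 at 22 °C and from 8.54 to 18.1 at 30 °C) and Ces3a (from 65.8 to 120.4 at 22 °C and from 24.3 to 31.6 at 30 °C) did not overlap between groups and differed by -1.92 and -1.61. Aldehyde oxidase Aox3 (from 6.83 to 16.7 at 22 °C and from 1.6 to 4.05 at 30 °C) came near the level of 3 reads at 30 °C and differed by -1.70, or by -1.10 with a pseudocount of 5. The single higher member, Ugt2b35, a glucuronosyltransferase named here after its values were seen, read 20.5, 19.8, 22.7, 7.74 and 33.7 at 22 °C and 67.8, 63.6, 45.5 and 37.6 at 30 °C and differed by 1.41 (adjusted p = 0.00338). The 16 lower members became 10 after upper-quartile rescaling, 8 without 22 °C replicate 2 or 30 °C replicate 4 and 9 without 30 °C replicate 2; without 22 °C replicate 5, 2 were higher.

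Genes of both zones of the liver lobule were among the lower ones. Hepatocytes around the central vein make glutamine and detoxify, and those around the portal vein make urea and glucose. Of 16 pericentral genes 8 were lower and 0 higher (median -1.0), and of 20 periportal genes 5 were lower and 0 higher (median -0.54). Glul, glutamine synthetase of the innermost pericentral cells, read 266, 238, 139, 106 and 77.3 at 22 °C and 45.2, 48.4, 57.7 and 56 at 30 °C. The groups were apart, with 22 °C replicate 5 the nearest to 30 °C, and the difference was -1.51 (SE 0.31, adjusted p = 0.00338), or -1.74 without that library. Aldh1a1, which makes retinoic acid, differed by -1.45, Gulo, the last enzyme of vitamin C synthesis, by -1.16, and Lect2, a secreted hepatokine, by -1.41. On the periportal side the adhesion protein E-cadherin, Cdh1, read 54.9, 68.8, 33.1, 38.2 and 27.4 at 22 °C and 18.5, 8.15, 14.2 and 24.8 at 30 °C and differed by -1.40 (SE 0.30, adjusted p = 0.00368). Sox9, a transcription factor of bile duct cells and of periportal hepatocytes, read 141, 199, 85.3, 90.0 and 23.7 at 22 °C and 14.7, 35.6, 24.8 and 14.2 at 30 °C. Here 22 °C replicate 5 lay within the range at 30 °C, and the difference was -2.02 (adjusted p = 0.00176) with it and -2.49 without it. The periportal count of 5 was 3 without 22 °C replicate 2. Many genes stand in more than 1 list, such as Glul, Cyp1a2 and Mup20, so the counts of different lists are not separate results. Serpina1a is in the hepatocyte marker and serpin lists, and Fabp1 in the hepatocyte marker and fatty acid oxidation lists. Hamp is in the acute phase, plasma carrier and iron lists. Lifr is in the plasma carrier list and in that of IL-1 and IL-6 family receptors.

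Of 28 genes of bile acid synthesis and transport, 5 were lower and 2 higher (median -0.48). Abcb11, the pump that exports bile salts into bile, read 342, 426, 300.0, 204 and 216 at 22 °C and 69.1, 89.5, 167 and 110.4 at 30 °C. All 4 libraries at 30 °C were below all 5 at 22 °C, and the difference was -1.46 (SE 0.31, adjusted p = 0.00349). Cyp27a1, of the alternative pathway of bile acid synthesis, differed by -0.85 (adjusted p = 0.0132). Slc10a1, which takes bile acids up from blood, read 189.6, 274, 109.6, 129.6 and 107 at 22 °C and 46.1, 48.4, 86.5 and 74.4 at 30 °C, without overlap, and differed by -1.28 (adjusted p = 0.019); its call ended without 22 °C replicate 1 (adjusted p = 0.0597) or 2 (0.0891) and without 30 °C replicate 1 (0.0846) or 2 (0.0819). The lipid flippase Atp8b1, which protects the canalicular membrane from bile salts, went the other way, with 29.4, 11.9, 21.8, 38.6 and 62.8 at 22 °C and 62.9, 50.9, 74.4 and 82.8 at 30 °C. Its highest library at 22 °C, replicate 5, reached into the range at 30 °C, and the difference was 1.20 (adjusted p = 0.0064), or 1.47 without that library. Cyp7a1, the rate-limiting enzyme of the classical pathway, was at 0 in 3 of 5 libraries at 22 °C and in all 4 at 30 °C, with no value above 1.47, so no difference could be measured at this depth. Nr0b2, a repressor of bile acid synthesis, was at 0 in all 4 libraries at 30 °C and at most at 1.98 at 22 °C. The 5 lower members became 3 without 22 °C replicate 1 or 2 or 30 °C replicate 4, and 2 without 30 °C replicate 1; the 2 higher became 1 without 22 °C replicate 1, 2 or 4 or 30 °C replicate 1 or 4.

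Amino acid catabolism gave 12 lower and 1 higher of 62 genes (median -0.57). Bhmt, which remethylates homocysteine with betaine, read 1895, 1414, 1074, 1423 and 666 at 22 °C and 162, 297, 359 and 109.7 at 30 °C. The lowest library at 22 °C, replicate 5, was still above the highest at 30 °C, and the difference was -2.54 (SE 0.40, adjusted p = 0.000189). Aldh4a1 of proline breakdown differed by -1.38 and Mut, methylmalonyl-CoA mutase, by -0.66 (from 135 to 180.3 at 22 °C and from 83.1 to 118 at 30 °C). Slc25a15, the mitochondrial ornithine carrier of the urea cycle, was the one higher member, with 178, 195, 219, 282 and 318 at 22 °C and 519, 417, 467 and 345 at 30 °C. The groups were apart and the difference was 0.89 (adjusted p = 0.0145), but the call ended without 22 °C replicate 1 (adjusted p = 0.0573) or 2 (0.0564) and without 30 °C replicate 1 (0.0696). The 12 lower members became 6 without 22 °C replicate 1, 5 without replicate 2, and 7 without 30 °C replicate 1 or 4; without 22 °C replicate 5, 3 were higher.

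Lipid genes moved in both directions. Thrsp, a thyroid hormone-responsive activator of lipogenesis, read 535, 473, 337, 288 and 139.8 at 22 °C and 32, 37.4, 93.9 and 39.6 at 30 °C. The groups were apart and the difference, -2.78 (SE 0.39, adjusted p = 2.65e-05), was -3.08 without 22 °C replicate 5. Of 26 genes of fatty acid and triglyceride synthesis, 3 were lower and 1 higher (5 lower without 22 °C replicate 5). The 1 higher call became 0 without any of 22 °C replicates 1, 2 or 4 or 30 °C replicates 1, 2 or 4. Fads1, a desaturase of polyunsaturated fatty acids, differed by -1.0 (adjusted p = 0.00209) and the cholesterol enzyme Nsdhl by -1.34 (adjusted p = 0.00496). Of 48 genes of fatty acid oxidation, ketogenesis and PPARa targets, 5 were lower and 2 higher (median -0.18). Fabp1, the liver fatty acid carrier, read 930.1, 1413, 1524, 612 and 639.8 at 22 °C and 261, 316, 328 and 294 at 30 °C, without overlap, a difference of -1.67 (SE 0.28, adjusted p = 0.000389). Hadh, an enzyme of beta-oxidation, and Bdh1, which makes the ketone body beta-hydroxybutyrate, differed by -1.0 and -1.12. The omega-hydroxylase Cyp4a10 (from 88.7 to 247 at 22 °C and from 40.7 to 75.7 at 30 °C) differed by -1.46 (adjusted p = 0.0139), and its call ended without 30 °C replicate 3 (adjusted p = 0.0584).

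Higher at 30 °C were Acot2, a mitochondrial acyl-CoA thioesterase, and Hacl1, a peroxisomal enzyme of fatty acid alpha-oxidation. Hacl1 read 152, 101, 122, 102 and 106 at 22 °C and 322, 303, 249.9 and 250.1 at 30 °C. Every library at 30 °C was above every library at 22 °C, and the difference was 1.28 (SE 0.21, adjusted p = 0.00026). Acot2 read 17.8, 27.8, 22.8, 18.4 and 17.4 at 22 °C and 43.4, 78.4, 39.9 and 61.4 at 30 °C and differed by 1.35 (adjusted p = 0.00697); without 30 °C replicate 2 the adjusted p was 0.051, and the 2 higher members of the oxidation list became 0. That count was 1 without 22 °C replicate 1 or 2 or 30 °C replicate 1 or 4. G0s2, an inhibitor of the triglyceride lipase ATGL and the single called gene of 18 in the lipid droplet list, read 39.6, 25.7, 55.9, 32.1 and 55.5 at 22 °C and 138, 126, 119.9 and 156 at 30 °C, a difference of 1.72 (SE 0.40, adjusted p = 0.00787). Insig2, which holds back cholesterol synthesis, read 18.9, 15.8, 19.3, 38.4 and 35.1 at 22 °C and 55.8, 62.3, 53.5 and 57.8 at 30 °C and differed by 1.22 (adjusted p = 0.00346). Cpt1a, the gate of mitochondrial fatty acid entry, was not called (0.05, 95% interval -0.47 to 0.58, adjusted p = 0.952). The same holds for Pdk4, which spares glucose (0.42, 95% interval -0.71 to 1.55, adjusted p = 0.793). The signs of Cpt1a and Pdk4 changed with the library left out.

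Secreted plasma proteins were lower for some members. Of 29 plasma carriers and hormone-binding proteins 5 were lower and 0 higher (median -0.41), and of 24 serpins and related inhibitors 5 were lower and 0 higher (median -0.23). Rbp4, the retinol carrier, read 799, 977, 797, 701 and 598 at 22 °C and 475, 458, 501 and 385 at 30 °C, without overlap, a difference of -0.75 (SE 0.16, adjusted p = 0.00374). Serpina6, the corticosteroid-binding globulin, read 197, 283, 182, 139 and 59.7 at 22 °C and 41.4, 41.2, 63.4 and 39.2 at 30 °C, with 22 °C replicate 5 inside the range at 30 °C, and differed by -1.73 (adjusted p = 0.00341), or -2.07 without that library. The alpha-1-antitrypsin copies Serpina1a and Serpina1b, which are close in sequence, differed by -0.81 and -0.68. Klkb1, plasma prekallikrein, read 32.8, 39.3, 32.9, 18.5 and 12.9 at 22 °C and 9.03, 5.16, 9.31 and 5.09 at 30 °C and differed by -1.73 (SE 0.31, adjusted p = 0.000786). Albumin (Alb) was not called (-0.24, 95% interval -0.54 to 0.06, adjusted p = 0.45). The serpin count of 5 was 3 without 22 °C replicate 1 or 2 or 30 °C replicate 2, and 2 without 22 °C replicate 3 or 30 °C replicate 1 or 4.

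Among 32 acute phase proteins, which the liver secretes in inflammation, 5 were lower and 0 higher (median -0.15). Hamp, hepcidin, the hormone that closes the iron exporter ferroportin, read 923, 1293, 1147, 758 and 385 at 22 °C and 322, 260.2, 328 and 248 at 30 °C. The groups were apart and the difference was -1.53 (SE 0.31, adjusted p = 0.00237), or -1.81 without 22 °C replicate 5. Tmprss6, a protease that lowers hepcidin output, ranged from 14.1 to 27.7 at 22 °C and from 2.51 to 6.79 at 30 °C and differed by -1.51 (adjusted p = 0.00496). Crp, C-reactive protein, differed by -0.89 (adjusted p = 0.0216), a call that ended without 22 °C replicate 2 (adjusted p = 0.0879), without 30 °C replicate 1 (0.0601), 3 (0.0793) or 4 (0.0571), and after upper-quartile rescaling (0.0603). Saa1, the major acute phase protein of mice, read 16125, 19206, 19108, 16869 and 23468 at 22 °C and 23376, 20854, 21926 and 21192 at 30 °C. The groups overlapped and the difference was 0.22 (95% interval -0.20 to 0.63, adjusted p = 0.674). The acute phase count of 5 was 2 after upper-quartile rescaling and 2 to 4 with any 1 of the 9 libraries left out: 3 without 22 °C replicates 1, 3 or 4 or 30 °C replicate 2, and 2 without 22 °C replicate 2 or 30 °C replicates 1, 3 or 4.

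Of 36 type I interferon response genes, a set that blocks virus replication, 6 were lower at 30 °C and 0 higher (median -0.46). At 22 °C, 33 of the 36 had risen between 0 and 4 h. Ifit3 read 1256, 1596, 756, 591 and 294 at 22 °C and 153, 157, 314 and 319 at 30 °C. At 22 °C the values ran over a wide range, replicate 5 lay inside the range at 30 °C, and the difference was -1.79 (adjusted p = 0.00346), or -2.13 without that library. Ifit2 read 37.7, 60.9, 29.2, 21.7 and 9.51 at 22 °C and 1.71, 3.45, 3.36 and 9.72 at 30 °C and differed by -2.52 (adjusted p = 0.000832), or -2.88 without it. Mx1, the gene of a GTPase, read 76.3, 118, 54, 21.3 and 9.43 at 22 °C and 4.07, 2.64, 0 and 6.94 at 30 °C. Its 30 °C values lay around the level of 3 reads, and it differed by -3.56 (adjusted p = 0.00115). Ifit3b, a near copy of Ifit3, differed by -1.73. Ifih1, a sensor of double-stranded RNA, differed by -1.38 (adjusted p = 0.0136), and its call ended without 22 °C replicate 2 (adjusted p = 0.0719). Ifit3 and Mx1 were not called between temperatures at 4 h. There Ifit3 was 3878 ± 375 at 22 °C and 4614 ± 459 at 30 °C (SD, n = 4 each), a difference of 0.25, and Mx1 374 ± 39.6 and 363 ± 59.3, a difference of -0.05. The count of 6 was 11 without 22 °C replicate 5.

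Interferon-stimulated promoters carry a response element of 2 GAAA repeats. Its core, GAAA, any 2 bases and GAAA again, was searched on both strands of the RefSeq promoters. It occurs in 3.99% of all promoters, in 14 of the 26 promoters found for the 36 tested interferon genes, in 15 of 217 promoters of the genes called lower (6.91%) and in 4 of 68 of those called higher (5.88%). Windows of 30 bases are shown for Ifit3 (chr19:34583363-34583392 and chr19:34583397-34583426, plus strand), with the motif, here on the opposite strand, in capitals.
Ifit3, first site: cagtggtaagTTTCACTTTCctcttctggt
Ifit3, second site: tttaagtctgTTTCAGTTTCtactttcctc
Both windows are the same in all 30 bases in Ifit3b (chr19:34607759-34607788 and chr19:34607793-34607822). The Ifit2 promoter in the table does not hold these letters.

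Of 21 interferon gamma GTPases and chemokines only Cxcl9, a ligand of CXCR3, a chemokine receptor of T cells, was called. It read 2028, 2185, 1838, 1820.2 and 1973 at 22 °C and 1098, 1183, 1377 and 1135 at 30 °C, without overlap, a difference of -0.72 (SE 0.16, adjusted p = 0.0064). The list's median was -0.34, and 2 members were called without 22 °C replicate 5 or 30 °C replicate 3. Ccl9, the 1 called gene of 19 cytokines and chemokines (2 without 22 °C replicate 5), differed by -0.73 (adjusted p = 0.0064). Tlr2, the receptor of bacterial lipopeptides, read 23.9, 28.7, 25.6, 16.7 and 9.1 at 22 °C and 1.97, 0, 9.92 and 3.35 at 30 °C and differed by -2.56 (adjusted p = 0.00792); 22 °C replicate 5 lay within the range at 30 °C, with a pseudocount of 5 the difference was -1.60, and without 30 °C replicate 2 the adjusted p was 0.0727. Cd14, the LPS co-receptor, was not called (0.18, 95% interval -0.42 to 0.77, adjusted p = 0.84). Of 21 IL-1 and IL-6 family receptors and signalling genes, 2 were lower (5 without 22 °C replicate 5) and 1 higher (median -0.28). The higher one differed by 1.03 (adjusted p = 0.0117), and its call ended without 22 °C replicate 2 or 30 °C replicate 1. The lower ones were Lifr and Il6ra. Lifr, the receptor of leukemia inhibitory factor, read 137, 131, 125, 75.1 and 68.9 at 22 °C and 23.3, 33.6, 36.6 and 21.2 at 30 °C and differed by -1.85 (SE 0.28, adjusted p = 0.000115). Il6ra, the IL-6 receptor, read 288, 233, 196, 122 and 100.5 at 22 °C and 88.7, 105, 76.4 and 55.3 at 30 °C and differed by -1.13 (adjusted p = 0.00703), a call that ended without 30 °C replicate 4 (adjusted p = 0.0515). None of 27 NF-kB and cytokine feedback genes was called by limma (median -0.48), and 8 had an unadjusted p under 0.05, 7 of them lower; without 22 °C replicate 5 limma called 3, all lower.

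Some stress-induced genes were lower as well. Adm, adrenomedullin, a vasodilator peptide, read 39, 111, 36.8, 166 and 18.8 at 22 °C and 1.19, 3.09, 3.51 and 3.56 at 30 °C. All 4 libraries at 30 °C were near the level of 3 reads, and the difference was -3.93 (SE 0.53, adjusted p = 1.73e-05). Pfkfb3, an activator of glycolysis, read 107, 92, 82.2, 88.8 and 63.2 at 22 °C and 28, 23.2, 38.8 and 44.5 at 30 °C and differed by -1.36 (SE 0.31, adjusted p = 0.0064). Of 36 genes of growth arrest, apoptosis and cell cycle 2 were lower (5.56%), not far from the 3.29% over all genes. They were Gadd45a (-2.85, adjusted p = 0.00443) and Btg1 (-1.06, adjusted p = 0.00884). Gadd45a read 169, 254, 127, 61.4 and 7.49 at 22 °C and 11.9, 11.6, 9.98 and 6.89 at 30 °C. Only 22 °C replicate 5 lay at the level of 30 °C, and without it the difference was -3.65. Herpud1, of degradation from the endoplasmic reticulum, differed by -1.38 (adjusted p = 0.00368). It belongs to the 35 genes of the unfolded protein and integrated stress response, of which 2 were lower (5.71%), also not far from 3.29%. The antioxidant enzymes catalase (Cat, from 255 to 1149 at 22 °C and from 189 to 343 at 30 °C) and glutathione peroxidase 1 (Gpx1, from 438 to 738 at 22 °C and from 296 to 354 at 30 °C) differed by -1.43 and -0.90. The clock repressor Bhlhe40 read 162, 155, 150.2, 125 and 70.4 at 22 °C and 43.6, 52.6, 56.2 and 55.1 at 30 °C and differed by -1.28 (SE 0.26, adjusted p = 0.0025). Dio1, the liver deiodinase that activates thyroid hormone, read 7.21, 9.79, 7.19, 5.09 and 7.21 at 22 °C and 0.324, 2.8, 0.273 and 2.21 at 30 °C, near the level of 3 reads, and differed by -1.94 (adjusted p = 0.00802), or -0.95 with a pseudocount of 5.

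The largest rises with a mean of at least 20 at 30 °C were in Nup133, Olfr1199, Akap17b, G0s2, Zfp638, Ogt, Zfp664 and Jkamp. Olfr1199, annotated as an olfactory receptor gene, read 4.78, 1.27, 4.51, 5.94 and 19.1 at 22 °C and 26.4, 63.3, 25.1 and 34.2 at 30 °C, a difference of 2.50 (SE 0.50, adjusted p = 0.00252). Ogt, the transferase that puts N-acetylglucosamine on nuclear and cytoplasmic proteins, read 5.7, 12.6, 4.16, 4.36 and 7.2 at 22 °C and 26.3, 25.3, 14.3 and 20.4 at 30 °C, without overlap, a difference of 1.59 (SE 0.31, adjusted p = 0.00178). The zinc finger genes Zfp638 and Zfp664 differed by 1.64 (adjusted p = 0.00496) and 1.56 (adjusted p = 0.00474). Nup133, a nuclear pore protein, read 1.03, 1.92, 0.983, 3.3 and 6.01 at 22 °C and 21.6, 25.5, 42.7 and 9.75 at 30 °C and differed by 2.83 (adjusted p = 0.0452), or 1.89 with a pseudocount of 5. The calls of 3 of these genes rested on single libraries. That of Nup133 ended without any of 22 °C replicates 1 to 4 or 30 °C replicates 1 to 3 (adjusted p 0.0565 to 0.128), that of Akap17b without 22 °C replicate 1 or 4 or 30 °C replicate 2 or 4 (0.0697 to 0.188), and that of Jkamp without any of 22 °C replicates 1 to 4 or 30 °C replicates 1, 3 or 4 (0.071 to 0.12). The liver transcription factor Onecut2 was higher too (1.17, adjusted p = 0.00801), with an adjusted p of 0.0571 without 30 °C replicate 2. In a fit of the 9 libraries alone, in place of all 36, the adjusted p rose to 0.0542 to 0.105 for Atp8b1, Cat, Gadd45a, Btg1, Zfp664, Il6ra, Onecut2, Akap17b, Jkamp and Cirbp. Without the filter on low values, it was 0.0586 for Slc10a1, 0.0624 for Crp, 0.0905 for Akap17b, 0.0967 for Jkamp and 0.124 for Nup133, and Nup133 also lost its call with a pseudocount of 0.5 (0.0601). Of the 85 genes called higher, 0 had risen between 0 and 4 h at 22 °C and 39 (45.9%) had fallen, where 15.8% and 13.6% of all genes tested rose and fell. Of the 286 called lower, 63 (22.0%) had risen and 27 (9.44%) had fallen.

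Genes followed because they respond to temperature or to energy shortage gave few differences. Cirbp, the cold-inducible RNA-binding protein, read 56.3, 34.5, 44.4, 56.5 and 34.5 at 22 °C and 7.09, 16.3, 24.4 and 31.2 at 30 °C. The groups were apart and the difference was -1.30 (adjusted p = 0.0432), but the call ended without any of 22 °C replicates 1 to 4 or 30 °C replicates 1 or 2 (adjusted p 0.0638 to 0.233), after upper-quartile rescaling (0.0647), without the filter on low values (0.103) and with a pseudocount of 0.5 (0.0511). Its relative Rbm3 was not called (0.10, 95% interval -0.29 to 0.49, adjusted p = 0.866). The heat shock gene Hspa1b read 2.05, 0.989, 2.84, 2.57 and 2.73 at 22 °C and 14.7, 7.63, 4.13 and 6.69 at 30 °C. Its groups did not overlap at these low values, but it was not called (1.44, adjusted p = 0.0871); with array weights it was (1.40, adjusted p = 0.0346). Hspa8 (-0.35), the insulin-regulated Igfbp1 (-0.01), the gluconeogenic Pck1 (-0.22) and the stress hormones Fgf21 (1.09) and Gdf15 (0.32) were not called, at adjusted p of 0.386 to 0.994, and Igfbp1 changed sign between settings. Angptl4, an inhibitor of lipoprotein lipase, ranged from 43.3 to 151 at 22 °C and from 37.2 to 59.1 at 30 °C and was not called (-1.02, adjusted p = 0.0994), but was without 22 °C replicate 4 (-1.32, adjusted p = 0.0206) and with array weights (-1.14, adjusted p = 0.0176).

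**Figure D4:**
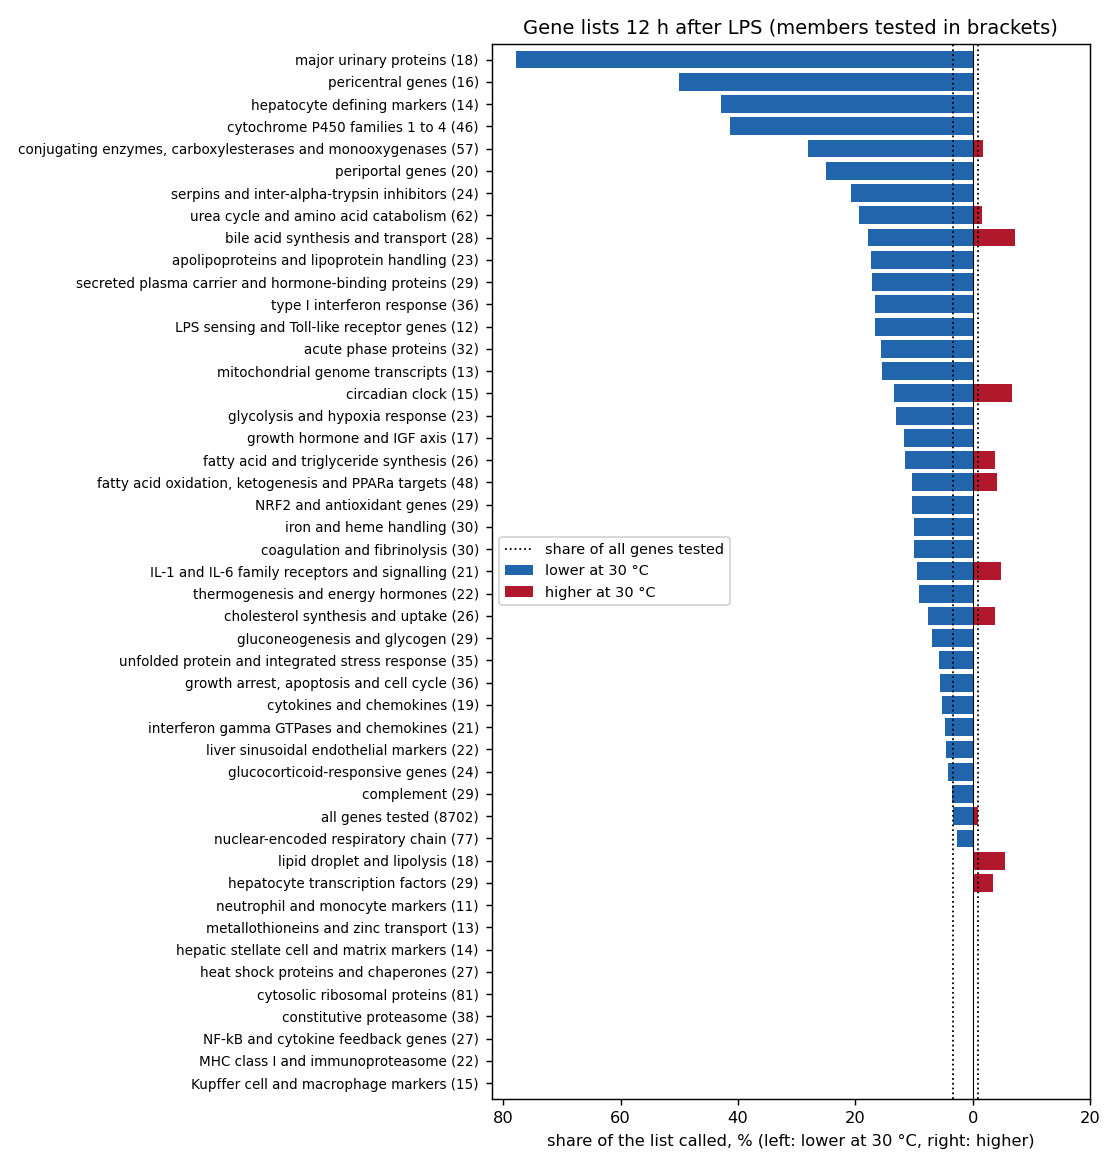
Share of each gene list (at least 10 members tested, number in brackets) called lower (blue, left) or higher (red, right) at 30 °C. Dotted lines mark 3.29% and 0.977%, the shares over all 8702 genes; the major urinary protein, pericentral, hepatocyte marker and P450 lists have the largest lower shares, and 9 lists have no call.

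Few of the genes called at 12 h were called at the earlier times. Before LPS 44 of 8702 genes differed between temperatures (0.506%), 8 higher at 30 °C (0.0919%) and 36 lower (0.414%). At 4 h 18 genes differed (0.207%), 2 higher (0.023%) and 16 lower (0.184%), and at 24 h 1622 (18.6%). Of the 286 genes lower at 12 h, 13 (4.55%) were already lower at 0 h and 7 (2.45%) at 4 h. Without regard to calls, 198 of the 286 were below 0 at 0 h (69.2%) and 197 at 4 h (68.9%), and 88 and 89 above 0. Over all genes tested, 48.5% and 45.3% were below 0. Of the 85 genes higher at 12 h, 48 were above 0 at 0 h (56.5%) and 46 at 4 h (54.1%). Over all genes tested, 51.5% and 54.7% were above 0. Of the 18 Mup genes, 9 were lower at 0 h, 4 at 4 h and 12 at 24 h. Mup17 averaged 2955 ± 1723 at 22 °C (SD, n = 4) and 173 ± 67.8 at 30 °C (SD, n = 5) before LPS, a difference of -3.96, and at 24 h the difference was -4.13. Mup20 differed by -0.23 at 0 h and was not called there. At 24 h, 64 of the 286 (22.4%) were higher at 30 °C and 76 (26.6%) lower, where the shares over all genes were 9.93% and 8.71%. Of the 85 genes higher at 12 h, 22 (25.9%) were higher at 24 h and 0 lower.

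**Figure D5:**
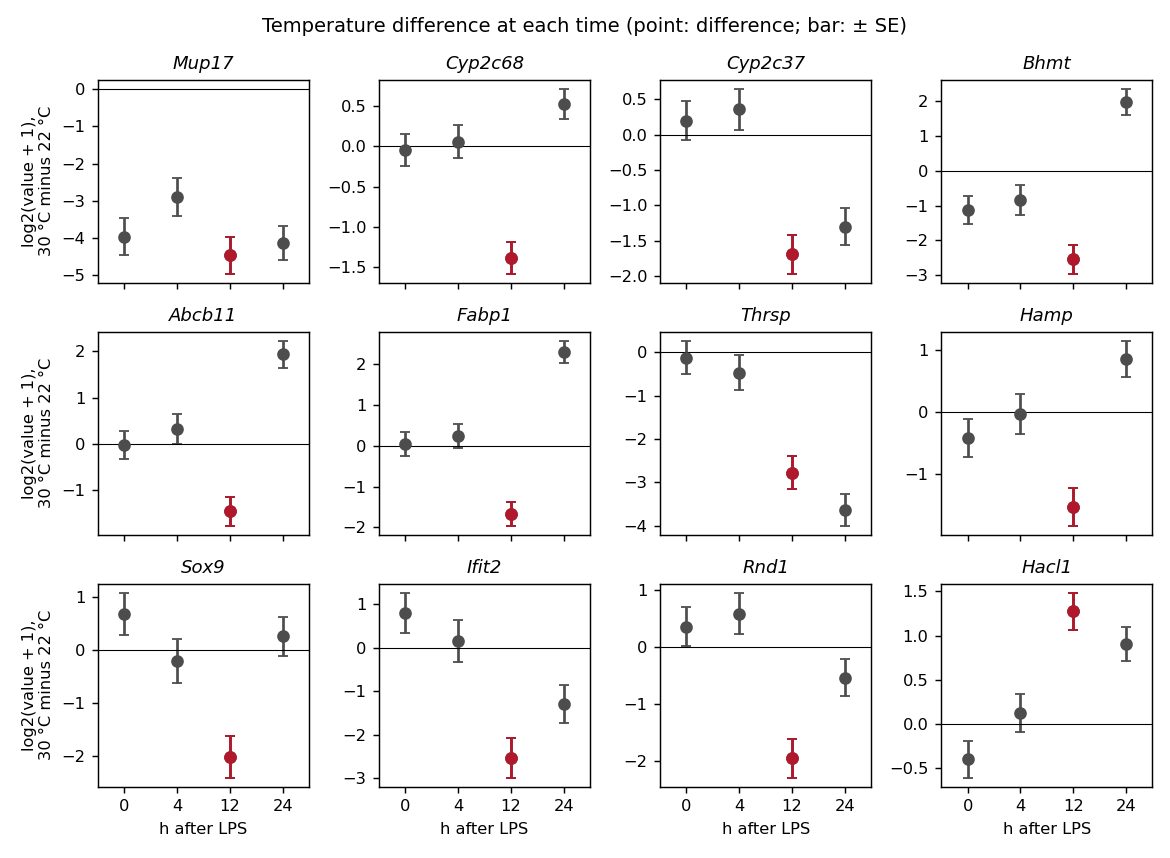
Difference between temperatures in log2(value + 1), 30 °C minus 22 °C, for 12 genes at 0, 4, 12 (red) and 24 h after LPS, with bars of ± SE from the fit over 36 libraries. Mup17 lies far below 0 at all 4 times, while Bhmt, Abcb11, Fabp1 and Hamp lie below 0 at 12 h and above 0 at 24 h.

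The difference at 12 h was tested against that at each other time. It departed from the difference at 0 h in 24 genes (0.276%), 6 upwards (0.0689%) and 18 downwards (0.207%), and from that at 4 h in 13 (0.149%), 5 upwards (0.0575%) and 8 downwards (0.0919%). Hacl1 and Tcea3, a transcription elongation factor, held their departure from 0 h with any 1 of the 9 libraries left out, at 1.67 (SE 0.29, adjusted p = 0.00948) and -3.23 (SE 0.55, adjusted p = 0.00948). Tcea3 read 4.72, 13, 7.87, 1.78 and 3.78 at 22 °C and 0, 0, 1.14 and 0 at 30 °C at 12 h, near the level of 3 reads, and its difference there (-2.37) was -1.01 with a pseudocount of 5. Pnrc1, a nuclear receptor coactivator that had risen by 4 h (290.4 ± 70.0 at 22 °C and 331 ± 63.4 at 30 °C), read 187, 200.2, 143, 186 and 93.7 at 22 °C and 52.9, 56.1, 55.8 and 50.9 at 30 °C at 12 h and departed by -1.68 (SE 0.32, adjusted p = 0.0207) from 0 h and -1.72 (SE 0.33, adjusted p = 0.0187) from 4 h. Rnd1, a small GTPase, departed by -2.31 (SE 0.48, adjusted p = 0.0224) and -2.54 (SE 0.50, adjusted p = 0.0187). Cyp2c68 and Cyp2c37 departed from both times, Cyp2c68 by -1.44 (SE 0.29, adjusted p = 0.0187) from 4 h. Ifit2, Sox9, Thrsp, Hadh and Rmnd5a departed from 0 h, and Fabp1, Oit3 and the lysosomal Pcyox1 from 4 h. Ublcp1, a proteasome phosphatase, departed upwards from 0 h but was not called at 12 h. It was called there only with array weights (1.48, adjusted p = 0.0227 in limma) or without 22 °C replicate 5 (1.64, adjusted p = 0.0495). Slc25a15 departed upwards from both 0 h and 4 h. All of these except Hacl1 and Tcea3 lost a call without at least 22 °C replicate 2 or 30 °C replicate 1 (adjusted p up to 0.114), and the count against 4 h was 0 without either of these libraries (798 and 814 genes at an unadjusted p under 0.05 in limma). The 24 genes against 0 h became 3 without 22 °C replicate 2 or 30 °C replicate 1, 8 without 30 °C replicate 2 or 4 and 121 without 22 °C replicate 5. The 13 against 4 h became 81 without 22 °C replicate 5, 23 without 30 °C replicate 3, 8 without 22 °C replicate 3 or 30 °C replicate 4, 6 without 30 °C replicate 2, and 3 without replicate 4 of the 30 °C group at 4 h, whose summed values stood above those of the other libraries.

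Against 24 h, 666 genes departed (7.65%), 163 upwards (1.87%) and 503 downwards (5.78%), among them 147 of the 286 lower genes. The 286 were chosen by the difference at 12 h, which is part of this departure, so the choice itself raises their number. Fabp1 went from lower at 12 h (-1.67) to higher at 24 h (2.31), a departure of -3.98 (SE 0.39, adjusted p = 6.73e-08). Klkb1 (-4.29, SE 0.43, adjusted p = 6.73e-08), Bhmt (-4.51, SE 0.55, adjusted p = 1.84e-06), Abcb11 (-3.40, SE 0.42, adjusted p = 1.89e-06) and the retinol dehydrogenase Rdh7 (-2.62, SE 0.29, adjusted p = 3.49e-07) crossed 0 in the same way. Hamp was 339 ± 52.1 at 22 °C and 639 ± 222 at 30 °C at 24 h (SD, n = 5 each), and departed by -2.39 (SE 0.42, adjusted p = 0.000212). Ehd3, a sinusoidal endothelial gene, was not called at 12 h (-0.38, adjusted p = 0.635) and departed by -4.17 (SE 0.45, adjusted p = 2.55e-07). Cyp1a2 was lower at both times, with a difference of -2.72 at 24 h, and departed by 1.37 (SE 0.36, adjusted p = 0.0138). These departures held with any 1 of the 9 libraries left out. At 24 h, 35 of 62 genes of amino acid catabolism were higher at 30 °C and 3 lower, and 21 of 26 cholesterol genes were higher and 0 lower. By list, 32 of 62 amino acid catabolism genes, 30 of 77 nuclear-encoded respiratory chain genes, 18 of 26 cholesterol genes and 0 of 18 Mup genes departed from 24 h.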

How the data were processed

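Libraries were made from 10 ng of liver RNA by CEL-Seq2 with molecular identifiers and sequenced on a NextSeq 500, per the labels' protocols. Trimmomatic, kallisto and sleuth are named per the submitters' processing notes; the sources used here give no versions, genome build or handling of identifiers. The deposited signal is scaled reads per base, one value per gene and library, normalized by the authors. It was used as log2(signal + 1) after a filter on the mean (at least 5), in limma 3.58.1 (R 4.3.3) with 1 mean per group over 36 libraries, two-sided, with Benjamini-Hochberg adjustment and a threshold of 0.05. The fit was tested on simulated data. Groups and replicate numbers come from the titles. At 12 h, deviations of same-numbered libraries from their group means correlated at r of -0.0292 to 0.0053 by the titles. By the numbers in the descriptions r was -0.0158 to 0.0613. Over all pairs of a 22 °C and a 30 °C library it was -0.0485 to 0.0613. Members and gene lists were chosen with earlier results of these data known. Genes named are the 8 largest rises and falls with a mean of at least 20, up to 5 members of each list with at least 2 calls, genes followed whatever they did, and up to 6 genes for each difference between times; some of the genes this gives are left out. Alternatives were the pseudocount, the filter, the deposited tpm column, other scalings, spread estimates and fits, the replicate block and each library left out.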

Additional observations from a re-analysis of the deposited data

Results flagged for a closer look

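In 16 of 214 gene and temperature groups at 12 h, 1 library lay far from the others: its gap to the nearest library, over the range of the group in log2(value + 1), was above the 95% critical value of Dixon's test, which chance passes in about 1 of 20 groups of normal values. Of the 16, 6 were Mup genes at 30 °C: replicate 1 had Mup18 at 0, replicate 3 had Mup14 at 4654 and Mup9 at 27.2, and replicate 4 had Mup7 at 0, Mup15 at 6.54 and Mup16 at 40.5. Also at 30 °C, replicate 1 stood apart for Aox3 (1.6), Adm (1.19) and Rbm3 (244), replicate 3 for Cyp2c68 (403), Serpina6 (63.4) and Tcea3 (1.14), and replicate 4 for Tmprss6 (2.51). At 22 °C, replicate 1 stood apart for Oit3 (74.0), replicate 2 for Tmprss6 (27.7) and replicate 5 for Jkamp (28.2). For Mup9, Mup15 and Tcea3 the other libraries at 30 °C were at 0 or close to it. Almost any higher value then passes, so the rate for normal values does not apply to these groups.

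The difference between temperatures departed from that at 0 h in 13 of the genes named (difference at 12 h minus difference at 0 h, log2). Departures were upwards for Ublcp1 (3.48), Hacl1 (1.67) and Slc25a15 (1.46). They were downwards for Ifit2 (-3.32), Tcea3 (-3.23), Sox9 (-2.71), Thrsp (-2.65), Rnd1 (-2.31), Cyp2c37 (-1.88), Rmnd5a (-1.86), Pnrc1 (-1.68), Hadh (-1.44) and Cyp2c68 (-1.34). Against 4 h there were 8: Slc25a15 (1.63), Rnd1 (-2.54), Oit3 (-2.28), Cyp2c37 (-2.04), Fabp1 (-1.91), Pnrc1 (-1.72), Pcyox1 (-1.62) and Cyp2c68 (-1.44). Without 30 °C replicate 1, only Hacl1 and Tcea3 among these kept an adjusted p under 0.05 in limma. Many genes were named for their difference at 12 h or for such departures. That choice raises the counts of departures among the genes named, here and against 24 h.

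Against 24 h, 50 of the genes named departed, and 40 of them did so without each of the 9 libraries. Upward departures among the 40 were those of Olfr1199 (2.74), Cd14 (2.05) and Cyp1a2 (1.37). The bile salt and amino acid genes Bhmt (-4.51), Abcb11 (-3.40), Slc10a1 (-2.64), Aldh4a1 (-2.22) and Mut (-1.33) departed downwards. So did the lipid genes Fabp1 (-3.98), Cyp4a10 (-2.86), Bdh1 (-2.24), Nsdhl (-2.22), Fads1 (-1.88), Hadh (-1.82) and Pck1, of glucose output (-1.37). Drug and vitamin enzymes were Aox3 (-2.86), Rdh7 (-2.62), Dio1 (-2.56), Aldh1a1 (-2.19), Cyp2c68 (-1.91), Cyp4v3 (-1.65), Pcyox1 (-1.64), Cyp2b9 (-1.48) and Gulo (-1.32). Secreted proteins and regulators of iron were Klkb1 (-4.29), Adm (-2.69), Hamp (-2.39), Crp (-2.08), Tmprss6 (-1.89), Rbp4 (-1.57), Ccl9 (-1.25) and Serpina1a (-1.24). The rest of the 40 were Ehd3 (-4.17), Tcea3 (-2.80), Cat (-2.71), Cdh1 (-2.28), Sox9 (-2.28), Lifr (-1.88), Pnrc1 (-1.49) and Gpx1 (-0.99).

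The other 10 lost the call without at least 1 library (highest adjusted p in limma 0.0604 to 0.112). They were G0s2 (1.75), Serpina6 (1.57), Rbm3 (0.89), Cxcl9 (0.73), Nr0b2 (-2.32), Ifih1 (-1.65), Oit3 (-1.65), Ces3b (-1.39), Btg1 (-1.08) and Serpina1b (-0.59). Ifih1 lost it only without 22 °C replicate 2, Oit3 without 30 °C replicates 1 or 3, and the other 8 without 4 or more different libraries each.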

How the results depend on the processing

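Of 107 genes named, 90 were called at 12 h, 72 of them in every setting run and 77 without each single library; 18 lost the call in some setting and 0 changed sign. The genes not called that changed sign were Igfbp1 (-0.01, but 0.0065 with the tpm column, 0.086 after upper-quartile rescaling, 0.12 and 0.06 without 22 °C replicates 2 and 3, 0.05 and 0.13 without 30 °C replicates 2 and 3, and from -0.17 to 0.13 over single libraries left out), Cpt1a (0.05, but -0.10 without 22 °C replicate 4, -0.18 and -0.02 without 30 °C replicates 1 and 2, and at most 0.28) and Pdk4 (0.42, but -0.077 without 22 °C replicate 4 and at most 0.68). Many genes were named for their difference or p at 12 h, so they do not stand for all 371 calls. The 371 calls at 12 h became 188 to 590 with 1 library left out and 798 with array weights. A fit of the 9 libraries alone called 271 genes and kept 207 of the 371 (55.8%). Without 22 °C replicate 2, 187 of the 371 were kept (50.4%). The 24 departures from 0 h became 3 without a filter, 53 with a mean of at least 20 and 75 with array weights, and 3 to 121 with 1 library left out. The 13 departures from 4 h became 7 without a filter, 138 with array weights, 3 without 30 °C replicate 4 of the 4 h group (a setting chosen after seeing the data), and 0 to 81 with 1 library left out. The 666 departures from 24 h stayed within 1.5 times in all settings. Whether the replicate numbers pair the samples was not established. With a replicate block the counts were 433 at 12 h, 76 against 0 h, 21 against 4 h and 621 against 24 h. Of the genes named, Nup133 then lost its call (adjusted p = 0.056 in limma). The descriptions number 2 of the 30 °C libraries otherwise than the titles; blocked by that numbering the counts were 358, 34, 10 and 668, and Nup133 (0.0684) and Cirbp (0.0524) lost their calls. Depth limits genes near 3 reads, such as Mx1, Adm and Tcea3. The causes of these changes were not tested.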
